A study of Mus musculus with 11 samples.

Results

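The genes described here encode the machinery that carries nuclear-encoded proteins into mitochondria and folds them in the matrix, together with a few close partners. A list of 32 genes was drawn up by symbol: 11 of the outer membrane, 7 of the intermembrane space (the small Tim chaperones and Chchd4), 9 of the inner membrane and 5 matrix chaperones. All 32 were found among the 24064 genes of the gated libraries, and for genes with several transcripts the one with the highest mean there was used.

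RNA came from haematopoietic stem cells (HSCs) of wild-type C57BL/6 mouse livers at postnatal day 0, sorted as Lineage-, Sca1+, cKit+, CD150+ and CD48-. Libraries of 100 to 200 cells were made by Smart-seq2, which copies full-length polyadenylated RNA from very few cells. FSC-A High HSCs (4 libraries) and FSC-A Low HSCs (3 libraries) were gated by forward scatter area, a flow cytometry signal commonly read as cell size, and 4 further libraries held HSCs with no scatter gate in their labels, called unfractionated here. No transgene, deletion or treatment is named for any group, and the labels do not tie replicates to separate animals. P-values therefore rest on the spread between these libraries, part of which may be technical.

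Most mitochondrial proteins are made in the cytosol and enter through the TOM complex of the outer membrane. From there, small Tim chaperones of the intermembrane space escort hydrophobic precursors, the TIM22 complex inserts carrier proteins into the inner membrane, and the TIM23 complex passes presequence proteins on to a motor built around the matrix Hsp70, Hspa9. The Hsp60 and Hsp10 chaperonin, encoded by Hspd1 and Hspe1, then folds many of them, and outer membrane barrel proteins are inserted by the SAM complex of Samm50 and the metaxins.

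The gated files hold RPKM values (reads scaled for transcript length and library depth), with depths of 65.7 M to 98.2 M reads recovered from the values. The members had between 192 and 28200 reads in a library. All 8 genes of the HSC marker list, which includes Cd48 as a negative marker, were detected. Their summed level was 215 to 247 RPKM in FSC-A High and 247 to 282 RPKM in FSC-A Low. Much of it was Cd34, which averaged 131 RPKM in FSC-A High and 143 RPKM in FSC-A Low. Of the listed genes, Kit, Mecom and Hlf were lower in FSC-A High by limma, the linear model used throughout. With the trend over transcript length and GC content removed, Kit (-0.91, limma adjusted p = 0.00505) and Mecom (-1.05, 0.0455) passed and Hlf did not (-0.53, 0.234). Cd48, against which the cells were sorted, averaged 1.37 ± 1.38 RPKM in FSC-A High (SD, n = 4) and 1.26 ± 0.426 RPKM in FSC-A Low (SD, n = 3). Marker lists of other cells were also read, and some moved with the gate. The erythroid list, of which Hbb-bt was higher among 2 tested genes, summed to 110 to 237 RPKM in FSC-A High and 69 to 102 RPKM in FSC-A Low, and the endothelial list, of which Pecam1 was the 1 tested gene and lower, to 2.46 to 7.93 RPKM in FSC-A High and 9.72 to 16.7 RPKM in FSC-A Low. With length and GC removed Hbb-bt did not pass (0.32, limma adjusted p = 0.406) and Pecam1 did (-1.25, 0.033). The megakaryocyte list summed to 69.6 to 103 RPKM in FSC-A High and 52.3 to 67 RPKM in FSC-A Low, and the neutrophil list, with Ctsg at 0, to 100 to 144 RPKM in FSC-A High and 98 to 101 RPKM in FSC-A Low. The lymphoid list summed to 18 to 56.3 RPKM in FSC-A High and 18.6 to 32.1 RPKM in FSC-A Low, with Ebf1 and Cd3e at 0 in every gated library. Its 1 tested gene, Cd79b, averaged 33.2 ± 16.4 RPKM in FSC-A High (SD, n = 4) and 23.8 ± 6.92 RPKM in FSC-A Low (SD, n = 3). No tested gene of the megakaryocyte, neutrophil, hepatocyte, macrophage and lymphoid lists was called. Of the 12 cell cycle genes listed, 11 were higher in FSC-A High. The part of cell cycle state, depth or other cells in the values below was not tested, and in bulk libraries fewer cells of a type and less RNA per cell cannot be told apart.

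Several genes of the outer membrane, the intermembrane space and the inner membrane were higher in FSC-A High HSCs, and a receptor gene was lower. Tomm7, a small TOM subunit, was 2.56-fold higher in FSC-A High as a ratio of mean RPKM, Timm10, a small Tim chaperone, 2.45-fold, the metaxin Mtx1 2.13-fold and Timm22, the carrier translocase channel, 2.11-fold. Tomm70a, the receptor for carrier precursors, went the other way and stood at 0.443 of its FSC-A Low mean. Of these named genes, only Timm10 did not pass once the trend over transcript length and GC content was removed, as described below. Of the 5 matrix chaperones 0 were called by limma and 0 by edgeR, and 1 had an unadjusted p below 0.05 in each (Hspe1 in limma, Grpel1 in edgeR).

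Across the 32 members, 13 were higher in FSC-A High, 1 was lower and 18 did not pass, with limma p-values adjusted over 10619 genes by Benjamini-Hochberg and a threshold of 0.05. Over all tested genes 27.3% were called, 15.6% higher and 11.7% lower. The median log2 difference of the members was 0.41, against -0.04 for all tested genes. Libraries of the groups did not overlap for 18 members on the higher side and 1 on the lower side, where the shares of all tested genes were 18.9% and 16%. Only 5 of the 14 called members differed by 2-fold or more. Since 1 RPKM was added before taking logs, differences of low genes are understated.

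**Figure D1:**
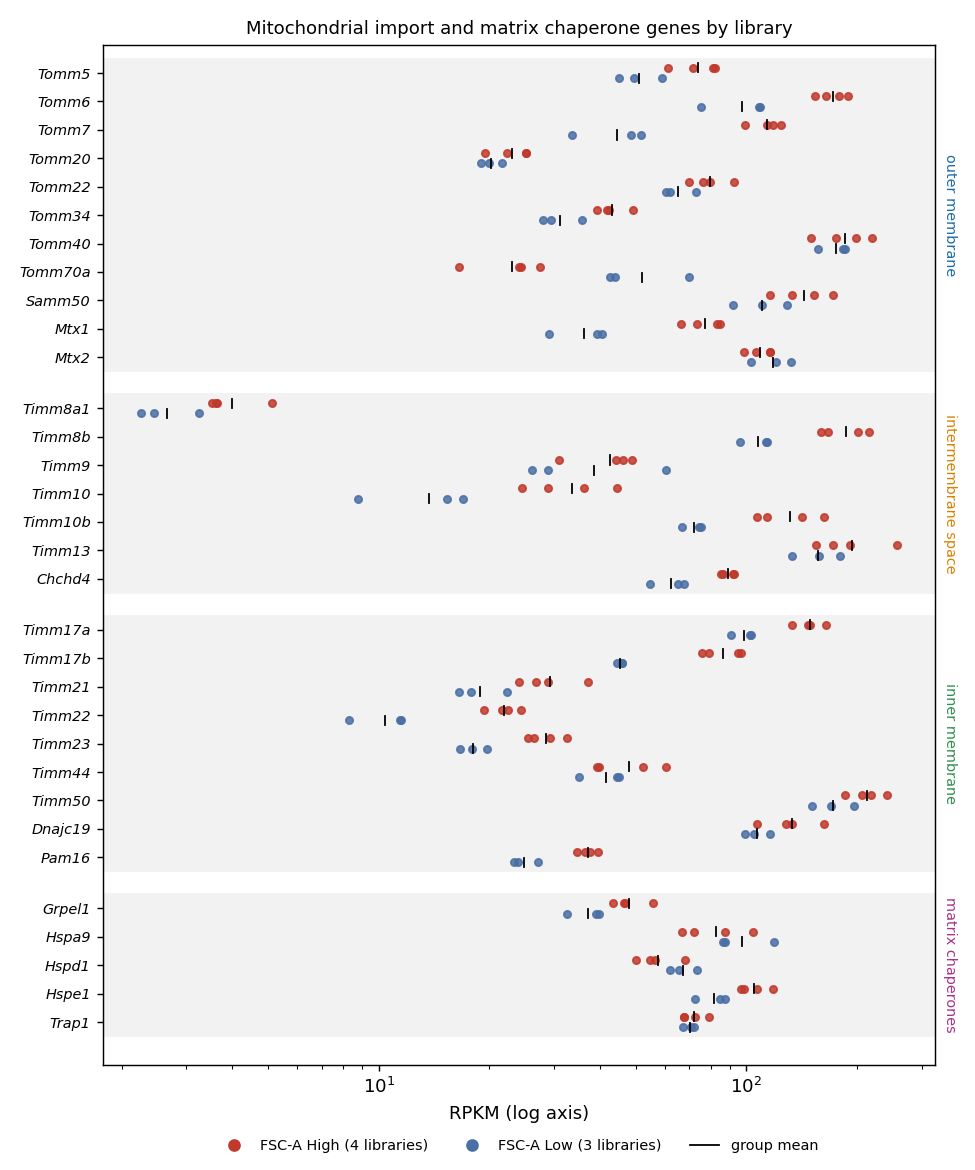
RPKM of each of the 32 genes (log axis) in 4 FSC-A High libraries (upper points, red) and 3 FSC-A Low libraries (lower points, blue), with group means as black ticks and genes set out by location. Tomm7, Mtx1 and Timm22 have FSC-A High points well to the right of FSC-A Low, Tomm70a has them to the left, and Hspa9, Hspd1 and Trap1 overlap.

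Members of the outer membrane gave 4 higher, 1 lower and 6 not called, with a median log2 difference of 0.38. Tomm7 (chromosome 5, 23838944 to 23844145 on GRCm38) tunes the stability of the TOM complex. It read 114, 118, 124 and 99.4 RPKM in the FSC-A High libraries and 33.5, 48.6 and 51.7 RPKM in the FSC-A Low libraries. The lowest FSC-A High library was well above the highest FSC-A Low one. The difference of Tomm7 was 1.36 on the log2 scale (SE 0.18, limma adjusted p = 1.79e-04).

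The small TOM subunits Tomm6 and Tomm5 lay in the same direction with smaller differences. Tomm6 read 165, 189, 179 and 154 RPKM in FSC-A High and 75.3, 108 and 109 RPKM in FSC-A Low (log2 difference 0.83, SE 0.16, limma adjusted p = 0.0024). Its groups stood apart, although 859 exonic bases of Tomm6 are shared with Gm21981 on the same strand, so its reads are uncertain. Tomm5 read 61.2, 81.3, 81.9 and 71.4 RPKM in FSC-A High and 49.5, 59 and 44.9 RPKM in FSC-A Low. The highest FSC-A Low library came close to the lowest FSC-A High library. The log2 difference of Tomm5 was 0.52 (SE 0.17, limma adjusted p = 0.0382), and it did not pass when FSC-A High 2, 3 or 4 or FSC-A Low 1 or 3 was left out (0.0995, 0.107, 0.054, 0.0904 and 0.127).

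Among the receptors and the channel, the only call was toward FSC-A Low. Tomm70a, which docks cytosolic Hsp70 and Hsp90 with their cargo, read 24.3, 24, 16.5 and 27.5 RPKM in FSC-A High and 69.7, 42.6 and 44 RPKM in FSC-A Low. Every FSC-A Low library was above every FSC-A High library, and FSC-A Low 1 was the highest of all. The log2 difference was -1.13 (SE 0.24, limma adjusted p = 0.00365). Tomm20, the presequence receptor, averaged 23 ± 2.7 RPKM in FSC-A High (SD, n = 4) and 20.3 ± 1.38 RPKM in FSC-A Low (SD, n = 3), with overlapping libraries. Its RPKM relative to that of Tomm70a was 0.919, 1.05, 1.52 and 0.708 in FSC-A High and 0.273, 0.51 and 0.455 in FSC-A Low. The balance of these receptor transcripts therefore did not overlap between gates, while 4 near-identical copies make the Tomm20 values uncertain. Tomm22, the central receptor, had a log2 difference of 0.28 (95% interval -0.06 to 0.63) and Tomm40, the channel itself, 0.07 (-0.26 to 0.40), neither called. Tomm34, a cytosolic co-chaperone of precursors, had non-overlapping libraries and a log2 difference of 0.46 that did not pass (limma adjusted p = 0.0743).

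The metaxins work with Samm50 in the SAM complex. Mtx1 read 66.3, 84.9, 83.3 and 73.5 RPKM in FSC-A High and 40.4, 39.2 and 29 RPKM in FSC-A Low. The groups were clearly separated, and the log2 difference was 1.08 (SE 0.18, limma adjusted p = 8.3e-04). Mtx2 read 116, 116, 106 and 98.6 RPKM in FSC-A High and 132, 103 and 120 RPKM in FSC-A Low, and these overlapped (-0.11, 95% interval -0.43 to 0.20). The Mtx1 level was 0.57 to 0.785 of the Mtx2 level in FSC-A High and 0.241 to 0.381 of it in FSC-A Low. Samm50 had a log2 difference of 0.38 and overlapping libraries. Exons of Mtx1 share 759 bases with Gm43737 and 318 bases with Thbs3, both on the opposite strand. Whether counting used strand is not given in the sources used here. Reads in such opposite-strand overlaps are therefore uncertain, for Mtx1 and for the members below that have them.

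Small Tim chaperones and Chchd4 gave 4 higher and 3 not called, with a median log2 difference of 0.51. Timm10 and Timm9 form a hexamer that shields hydrophobic precursors. Timm10 read 24.6, 36.2, 28.9 and 44.5 RPKM in FSC-A High and 8.78, 15.3 and 16.9 RPKM in FSC-A Low. The FSC-A High libraries were all higher and varied widely among themselves (log2 difference 1.25, SE 0.27, limma adjusted p = 0.00452). Its partner Timm9 ranged from 31 to 48.9 RPKM in FSC-A High and from 26.1 to 60.3 RPKM in FSC-A Low, where FSC-A Low 2 was the highest of the 7 libraries. The log2 difference of Timm9 was 0.23 (95% interval -0.37 to 0.82) and was not called. With 1 library left out it ranged from 0.00 (without FSC-A Low 3) to 0.59 (without FSC-A Low 2, limma adjusted p = 0.0808) and was not called.

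Timm10b, a small Tim attached to the TIM22 complex, read 107, 163, 142 and 114 RPKM in FSC-A High and 66.7, 74.4 and 75.1 RPKM in FSC-A Low. All FSC-A High values were above FSC-A Low (log2 difference 0.84, SE 0.17, limma adjusted p = 0.00285), and 376 of its exonic bases are shared with Gm45799 on the same strand. Timm8b, which pairs with Timm13, read 160, 216, 201 and 167 RPKM in FSC-A High and 96, 113 and 114 RPKM in FSC-A Low. Its groups were likewise apart (0.78, SE 0.15, limma adjusted p = 0.00222). Timm13 itself overlapped, at 155 to 257 RPKM in FSC-A High and 133 to 180 RPKM in FSC-A Low.

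Timm8a1, the X-linked relative of Timm8b whose human counterpart is mutated in a deafness and dystonia syndrome, was the lowest member. It read 3.64, 3.61, 5.14 and 3.53 RPKM in FSC-A High and 2.26, 3.25 and 2.45 RPKM in FSC-A Low. Those libraries did not overlap, yet the log2 difference of 0.45 had an SE of 0.30 and did not pass (limma adjusted p = 0.303). Timm8b exceeded Timm8a1 by 39.1 to 59.7 times in FSC-A High and 34.7 to 46.5 times in FSC-A Low, with 1 near-identical copy that makes the Timm8a1 reads uncertain. Chchd4, the oxidoreductase that folds the small Tims through disulfide bonds, read 85.4, 91.7, 86.3 and 92.7 RPKM in FSC-A High and 54.8, 65.1 and 67.7 RPKM in FSC-A Low. Its FSC-A High libraries were tightly grouped above FSC-A Low (0.51, SE 0.15, limma adjusted p = 0.0227). Without FSC-A High 2 or 3 or FSC-A Low 1 it did not pass (0.0567, 0.0505 and 0.0904).

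Inner membrane members gave 5 higher and 4 not called, with a median log2 difference of 0.59. Timm22, the channel for carrier proteins, read 21.6, 19.3, 24.3 and 22.5 RPKM in FSC-A High and 11.4, 11.5 and 8.29 RPKM in FSC-A Low. All 4 FSC-A High libraries were well above FSC-A Low (log2 difference 1.02, SE 0.22, limma adjusted p = 0.00505). Timm17b, a paralog that serves as the Timm17 subunit of TIM23, read 75.9, 96.6, 94.7 and 78.9 RPKM in FSC-A High and 45.9, 46 and 44.4 RPKM in FSC-A Low. The FSC-A Low values were almost identical, and the log2 difference was 0.91 (SE 0.16, limma adjusted p = 0.00113). Exons of Timm17b share 117 bases with Gm10491 on the opposite strand.

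Timm17a, the alternative Timm17 subunit, was also higher, with a smaller log2 difference. It read 149, 147, 165 and 133 RPKM in FSC-A High and 90.6, 103 and 102 RPKM in FSC-A Low (0.59, SE 0.14, limma adjusted p = 0.00747). Timm17a was the more abundant paralog in all 7 libraries, at 1.97, 1.52, 1.75 and 1.68 times Timm17b in FSC-A High and 1.98, 2.24 and 2.29 times in FSC-A Low. These ratios did not overlap but nearly touched at FSC-A High 1 and FSC-A Low 1, and 1 near-identical copy makes Timm17a uncertain.

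The TIM23 channel and a motor regulator sat near the threshold. Timm23, the pore, read 26.5, 25.4, 32.6 and 29.2 RPKM in FSC-A High and 16.6, 17.9 and 19.7 RPKM in FSC-A Low. The groups were apart (0.62, SE 0.20, limma adjusted p = 0.0321). Without FSC-A High 3 or 4 or FSC-A Low 1 or 2 the adjusted p of Timm23 was 0.1, 0.0561, 0.0928 and 0.0688, and 5 near-identical copies make its reads uncertain. Its exons also share 104 bases with the small nucleolar RNA Gm23946 on the same strand. Pam16, which holds the J-protein partner of the motor in check, read 39.5, 36.5, 34.7 and 37.6 RPKM in FSC-A High and 23.9, 23.3 and 27.1 RPKM in FSC-A Low. Its groups were compact and apart (0.57, SE 0.18, limma adjusted p = 0.0307), with 455 exonic bases shared with Glis2 on the opposite strand. Pam16 did not pass without FSC-A High 1, 2 or 3 or FSC-A Low 1 or 2 (0.0593, 0.0649, 0.0572, 0.0798 and 0.082).

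Of the remaining inner membrane members, Timm21, which links TIM23 to TOM and to respiratory chain assembly, had non-overlapping libraries and a log2 difference of 0.59 that narrowly failed (limma adjusted p = 0.0584). It passed without FSC-A Low 2 (0.0489) and with a filter at 5 RPKM (0.0459). Timm50, the presequence receptor of TIM23, had the highest mean of the members in the gated libraries, at 213 ± 23.4 RPKM in FSC-A High (SD, n = 4) and 173 ± 22.7 RPKM in FSC-A Low (SD, n = 3), and its libraries overlapped. Timm44, which tethers Hspa9 to the channel, had a log2 difference of 0.19 (95% interval -0.24 to 0.62). Dnajc19, a J-protein of the inner membrane, had 0.30 (-0.05 to 0.65), and 1 near-identical copy makes its reads uncertain.

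Among the matrix chaperones the log2 differences ran from -0.24 to 0.36, with a median of 0.03 on the deposited scale that turned to -0.28 when libraries were scaled to their totals. The medians of all tested genes were -0.04 and -0.30 on these scales. Hspe1 read 98.8, 107, 118 and 96.7 RPKM in FSC-A High and 87.6, 84.7 and 72.4 RPKM in FSC-A Low. All FSC-A High libraries were the higher ones, but the log2 difference of 0.36 (SE 0.15) did not pass (limma adjusted p = 0.0858). Its chaperonin partner Hspd1 read 68.1, 56.5, 54.8 and 50.1 RPKM in FSC-A High and 62, 65.5 and 73.6 RPKM in FSC-A Low, where only FSC-A High 1 reached into the FSC-A Low range. For Hspd1 the log2 difference was -0.23 (SE 0.16, limma adjusted p = 0.338).

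Grpel1, the nucleotide exchange factor of Hspa9, read 46.7, 55.6, 43.3 and 46.4 RPKM in FSC-A High and 32.6, 39.1 and 39.8 RPKM in FSC-A Low. The libraries did not overlap, and the log2 difference of 0.36 (SE 0.17) did not pass (limma adjusted p = 0.143). Exons of Grpel1 share 411 bases with Tada2b on the opposite strand. Hspa9 averaged 82.7 ± 16.6 RPKM in FSC-A High (SD, n = 4) and 97.4 ± 18.3 RPKM in FSC-A Low (SD, n = 3). Trap1, the mitochondrial Hsp90, averaged 71.8 ± 5.44 RPKM in FSC-A High and 70 ± 2.52 RPKM in FSC-A Low, and the 95% interval of its difference was -0.28 to 0.35.

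Hspd1 and Hspe1 lie head to head on chromosome 1 and share the DNA between their starts, which is shown here because the results set these partners side by side. The 215 bases between an Hspd1 start (55087932, minus strand) and the Hspe1 start (55088148, plus strand) come from RefSeq on GRCm38.p6. Other Hspd1 transcripts start at 55088243, beyond the Hspe1 start, and overlap it. Capitals mark a match to a heat shock element core (GAANNTTC, searched on both strands) that runs into an ETS core (CCGGAAG on either strand, here in both orientations).
Hspd1-Hspe1 (chr1:55087933-55088147, plus strand): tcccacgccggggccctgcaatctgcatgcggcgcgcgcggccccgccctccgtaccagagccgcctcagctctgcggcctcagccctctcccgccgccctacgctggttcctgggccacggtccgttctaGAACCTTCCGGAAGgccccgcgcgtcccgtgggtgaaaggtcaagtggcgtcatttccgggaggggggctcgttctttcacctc
The Hspe1 level was 1.45, 1.9, 2.15 and 1.93 times the Hspd1 level in FSC-A High and 1.41, 1.29 and 0.983 times in FSC-A Low. The ratios did not overlap, with FSC-A High 1 and FSC-A Low 1 nearly equal. Hspe1 and Hspd1 share 112 exonic bases on opposite strands, and Hspd1 has 1 near-identical copy elsewhere.

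**Figure D2:**
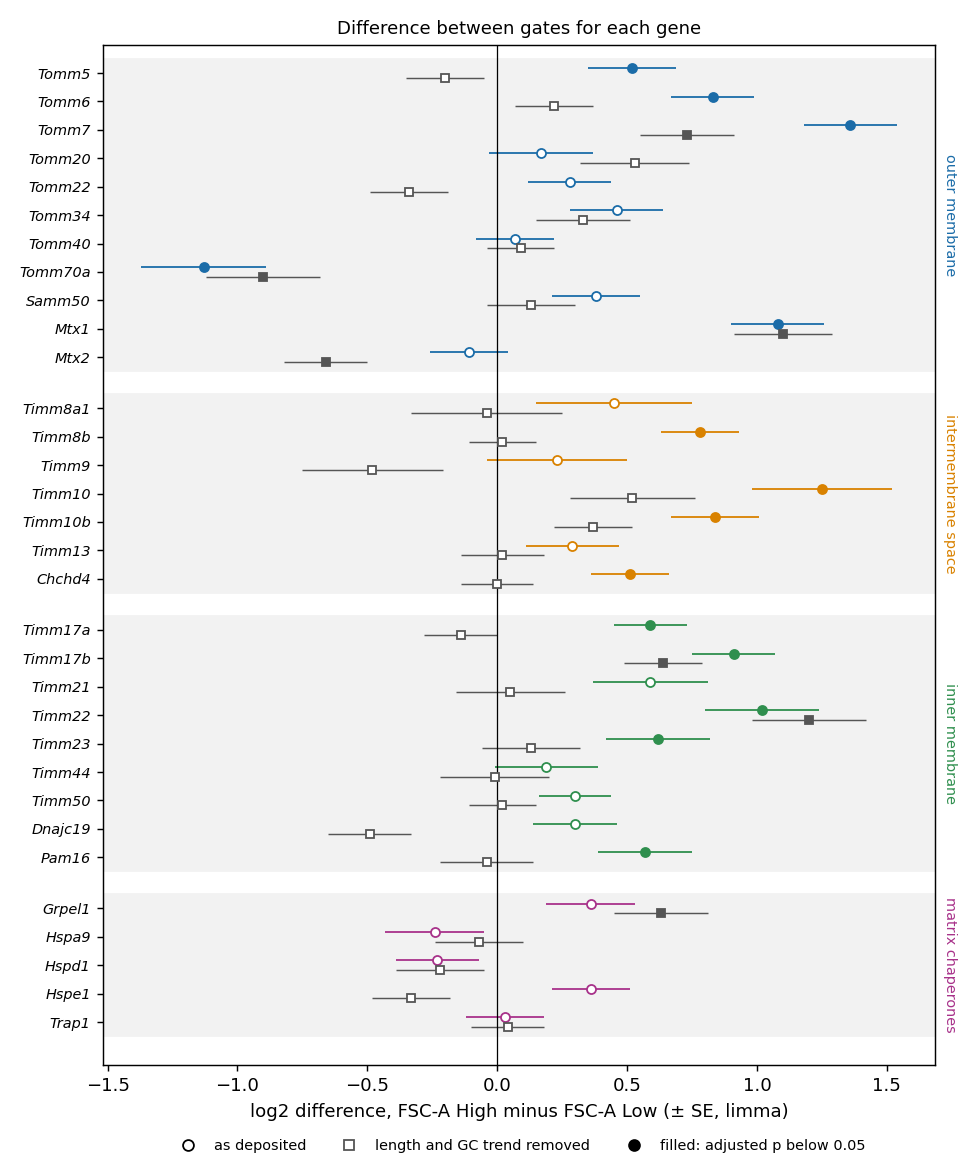
Log2 difference between FSC-A High and FSC-A Low for each gene (± SE, limma), as deposited (coloured circles) and with the trend over transcript length and GC content removed (grey squares), where filled symbols passed an adjusted p of 0.05. Tomm7, Mtx1, Timm17b and Timm22 stay filled to the right in both, Tomm70a to the left, and most intermembrane space genes move toward 0.

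Transcript length moved with these differences. The members are short, with a median of 1235 nt against 2429 nt for all tested genes, and those called higher had a median of 997 nt against 1568 nt for the others. Over all 10619 genes the log2 difference fell with length, with a Spearman's rho across genes of -0.45, and it was -0.43 across the 32 members (genes of the same libraries, not independent replicates). Under 1000 nt, 7 of 10 members were called higher where 43.9% of all tested genes of that length were. That share is not matched in length, since the shortest member has 527 nt. The shortest bin, 425 genes with a median of 117 nt, had a median log2 difference of 0.384. Bins with medians of 679.5 and 890.5 nt had 0.689 and 0.574, and the 10 members had 0.58. Of the 22 longer members 6 were called higher, where the share of all tested genes of 1000 nt or more was 11.6%. This share is not matched in length either. From 1000 to 2000 nt lay 15 of these members, with a median log2 difference of 0.45, where all tested genes had 0.29. All tested genes of 3000 to 4000 nt had -0.33, and longer ones -0.42.

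With a smooth trend over length and GC content removed from each library, 5 members were higher and 2 lower, beside 9.2% and 7.14% of all 10332 genes in that fit, and the median of the members was 0.02. Tomm7 (0.73, limma adjusted p = 0.0138), Mtx1 (1.10, 0.00187), Timm17b (0.64, 0.0124) and Timm22 (1.20, 0.00295) were called higher in both fits. Tomm70a was lower in both (-0.90, 0.0149). The other 9 members called higher on the deposited scale did not pass, among them Timm10 (0.52, limma adjusted p = 0.173). Of those 9, Timm8b and Chchd4 lay at 0.02 and 0.00. Timm13, called in neither fit, lay at 0.02. Grpel1 became higher (0.63, 0.031) and Mtx2 lower (-0.66, 0.013), which widened the gap between the metaxins. The medians by location were then 0.13 for the outer membrane, 0.02 for the intermembrane space, 0.02 for the inner membrane and -0.07 for the matrix chaperones. Hspe1, at 768 nt, and Hspd1, at 2332 nt, had -0.33 and -0.22, so the opposite signs seen on the deposited scale were not kept.

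**Figure D3:**
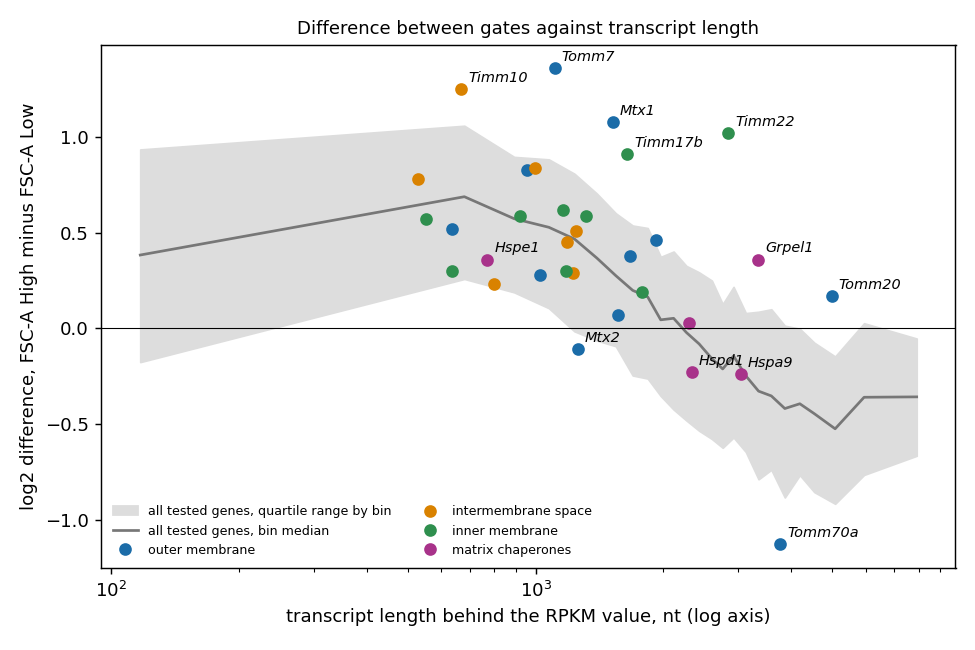
Log2 difference of each gene (FSC-A High minus FSC-A Low) against its transcript length in nt (log axis), coloured by location, over the median (grey line) and quartile range (grey band) of all tested genes in bins of length. The 10 members under 1000 nt run from 0.23 to 1.25, where all tested genes of that length have a median of 0.57, and Timm10, Tomm7, Mtx1, Timm17b and Timm22 are among those above the band and Tomm70a is below it.

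Scaling also set the overall level of the differences. With every library brought to a common sum of gene values, the median of all tested genes was -0.30 and that of the members 0.11, still above it, with 8 members higher and 4 lower where 9.21% and 21.4% of all tested genes were. Under that scaling the matrix chaperone median was -0.28, with Hspd1 (-0.53, limma adjusted p = 0.0289) and Hspa9 (-0.55, 0.0475) called lower. A count test with edgeR on the recovered reads, where 99.99% of transcript values gave whole reads, called 2580 genes. It called 10 members higher and 1 lower, where 12.9% and 11.4% of all tested genes were. Tomm5, Timm23 and Pam16 were the calls it lost. Tomm7, Mtx1, Timm17b, Timm22 and Tomm70a were called in each of the 20 alternatives run.

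Sequence before the start is shown for the called members that held under every alternative and have an entry in the RefSeq table, together with a search for 8 motifs. Of the 32 members, 29 had a window of 300 bases (250 before the start and 50 after it). The ETS core CCGGAAG was in 12 of these 29 genes and in 40.6% of their 32 windows, against 8.86% of all 32851 windows of that length. The nuclear respiratory factor motif (GCGC, any base, TGCGC) was in 5 genes (15.6% of windows, against 4.6% of all) and the YY1 motif (AAGATG followed by GCGG) in 2 (6.25%, against 0.852%), while the heat shock core GAANNTTC was in 3 (9.38%, against 7.86%). The E-box CACGTG was in 15.6% of the members' windows against 7.15% of all, the box CCAAT in 31.2% against 37.4%, the cAMP response element (TGAC followed by GTCA) in 3.12% against 1.79%, and the amino acid response core TGATG in 21.9% against 39.3%. All were searched on both strands, and a match describes the letters alone. The shares of all windows were not limited to the genes tested here and not matched in GC content, so they do not set the members apart from other expressed genes. The 250 bases before each start follow, on GRCm38.p6 and in the direction of transcription, with matches to the first 4 motifs in capitals.
Tomm70a (chr16:57121464-57121713, plus strand): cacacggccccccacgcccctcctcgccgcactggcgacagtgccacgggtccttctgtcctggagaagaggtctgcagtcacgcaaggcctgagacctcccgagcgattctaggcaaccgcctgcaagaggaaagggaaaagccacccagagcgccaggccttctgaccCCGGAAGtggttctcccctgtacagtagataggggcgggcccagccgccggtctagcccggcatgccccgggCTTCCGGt
Mtx1 (chr3:89213908-89214157, minus strand): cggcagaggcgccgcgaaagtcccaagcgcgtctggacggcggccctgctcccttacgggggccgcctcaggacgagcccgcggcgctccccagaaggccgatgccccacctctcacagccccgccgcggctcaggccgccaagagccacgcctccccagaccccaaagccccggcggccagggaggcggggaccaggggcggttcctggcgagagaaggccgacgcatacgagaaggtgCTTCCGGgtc
Timm22 (chr11:76406675-76406924, plus strand): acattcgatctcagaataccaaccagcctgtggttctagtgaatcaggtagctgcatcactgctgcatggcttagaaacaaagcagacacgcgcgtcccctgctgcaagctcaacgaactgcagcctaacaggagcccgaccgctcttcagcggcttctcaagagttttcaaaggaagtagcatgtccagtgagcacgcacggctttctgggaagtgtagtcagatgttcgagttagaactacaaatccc
Timm17b (chrX:7899086-7899335, plus strand): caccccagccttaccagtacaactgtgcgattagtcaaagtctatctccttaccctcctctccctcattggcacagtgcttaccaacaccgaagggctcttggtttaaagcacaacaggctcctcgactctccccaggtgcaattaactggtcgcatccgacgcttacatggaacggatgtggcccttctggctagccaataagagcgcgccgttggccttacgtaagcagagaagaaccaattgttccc
Tomm70a, the member that was lower, has the ETS core at 2 places, and Mtx1, which was higher, has it at 1. Timm22 and Timm17b show none of those 4 motifs in these bases. Between the gates, of the 12 genes with the ETS core, 5 were higher and 1 lower with a median log2 difference of 0.41, and of the 17 genes without it, 7 were higher and 0 lower with a median of 0.38, beside 15.6% higher and 11.7% lower over all tested genes. With length and GC removed the medians were 0.08 and 0.02.

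Other genes of the pathway were read from 6 lists of 55 genes, of which 50 were tested. On the deposited scale 15 were higher and 5 lower, where 15.6% and 11.7% of all tested genes were. With length and GC removed, 6 were higher and 5 lower, where 9.2% and 7.14% of all genes were. Of 10 further translocase parts and receptors, 4 were higher and 1 lower. Timm29, a TIM22 subunit, averaged 43.9 ± 22.2 RPKM in FSC-A High (SD, n = 4) and 98.2 ± 19.7 RPKM in FSC-A Low (SD, n = 3), and its log2 difference was -1.23 (limma adjusted p = 0.00636, SE 0.28), opposite to Timm22. Dnajc15, a J-protein related to Dnajc19, was higher by 0.99 (0.0145), as was Romo1, a small inner membrane protein, by 0.74 (0.0166). The other higher genes were Agk (0.75, limma adjusted p = 0.0184) and Oxa1l (0.84, 0.0473). Timm29 remained lower with length and GC removed (-0.99, limma adjusted p = 0.0301). Agk (0.74, 0.0317) and Oxa1l (0.93, 0.0403) remained higher, but Dnajc15 (0.17, 0.678) and Romo1 (0.28, 0.282) did not pass.

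Of 5 presequence peptidases, Immp1l (0.68, limma adjusted p = 0.0311) and Pmpcb (0.68, 0.0399) were higher. Neither passed with length and GC removed (-0.03 and 0.39, limma adjusted p = 0.933 and 0.284). Of 12 other matrix chaperones and mitochondrial proteases, 4 were higher and 3 lower. Clpp, the protease chamber of the matrix, was higher by 0.79 (0.00317), whereas the membrane-bound m-AAA protease subunits Afg3l2 and Spg7 were lower, at -1.03 (0.00648) and -1.14 (0.00893). All 3 passed with length and GC removed as well (0.50, -0.81 and -0.91). Of 8 cytosolic chaperones of precursors, 4 were higher. They were the nascent chain partners Naca (1.27, 1.38e-04) and Btf3 (1.04, 3.8e-04) and the Hsp90 genes Hsp90ab1 (0.36, 0.0334) and Hsp90aa1 (0.68, 0.047). Of these, Btf3 did not pass with length and GC removed (0.36, limma adjusted p = 0.106). Of 6 genes taken as measures of mitochondrial content, Vdac2 alone was called (0.49, 0.0424), and of 9 stress and biogenesis factors Myc alone, at -1.13 (0.00611). With length and GC removed Vdac2 did not pass (0.26, limma adjusted p = 0.312), and Myc did (-0.90, 0.0387).

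In unfractionated HSCs the values are scaled read counts, expressed here as CPM, a share of the library's reads, per kilobase of the transcript length behind the gated values, and they belong to no comparison with the gates. Hspe1 was the highest member with a median of 176 (153 to 276 over 4 libraries), followed by Tomm22 at 169 (126 to 223) and Hspd1 at 144 (115 to 193). Timm22 at 30.9 (19.6 to 32.6) and Timm8a1 at 10.3 (7.48 to 14.8) were the lowest, and these were also the lowest in the gated libraries. The range over libraries exceeds most gaps between neighbours in this order. Across the 32 members the rank correlation between these levels and the gated means was 0.61, given as a description across genes. Tomm40 ranked 22 here and 2 in the gated libraries, and Tomm6 ranked 28 and 5. Unfractionated library 4 had 15.3% of its reads in the ribosomal RNA gene Rn45s, where the others had at most 5.26%, and was the lowest library for 14 members and the highest for 4. Without it the medians of Hspe1 and Tomm22 were each 195, that of Hspd1 115 and that of Timm22 30.5.

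**Figure D4:**
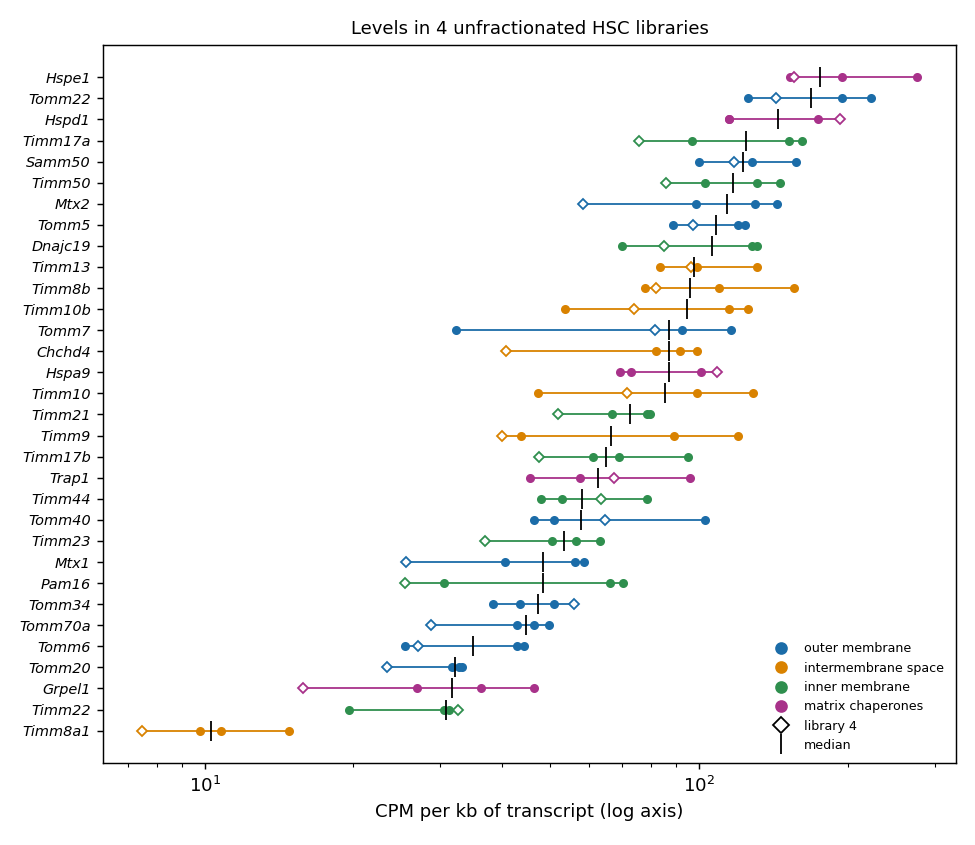
Level of each of the 32 genes in 4 unfractionated HSC libraries as CPM per kb of transcript (log axis), ordered by median (black tick) and coloured by location, with library 4 as an open diamond. Hspe1 and Tomm22 lead at medians of 176 and 169, and Timm8a1 is lowest at 10.3.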

How the data were processed

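RNA was measured by Smart-seq2 in 11 libraries of sorted neonatal liver HSCs, and the sample titles place 4 in FSC-A High, 3 in FSC-A Low and 4 in the unfractionated group. Each deposited gated file lists 33984 RefSeq transcripts with values taken as RPKM made by the authors. Neither label nor header names the unit, and RPKM and FPKM cannot be told apart. Values were whole multiples of 1 read for 99.99% of transcripts above 0 (tolerance 0.002), which gave each transcript's length and each library's depth, 65.7 M to 98.2 M reads. The deposited unfractionated files hold a signal per gene symbol that behaves as counts divided by a size factor: 100% of values came out as whole reads within 0.01, 21.3 M to 30.9 M per library. These were expressed as CPM. STAR, DESeq2 and mm10 are named in the submitters' processing notes, without versions or roles. Intervals cover the spread between libraries only.

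limma 3.58.1 (R 4.3.3; lmFit, eBayes with trend) compared the gates on log2(RPKM + 1). Genes needed 1 RPKM or more in 3 or more libraries, which left 10619 genes and all 32 members. The design had named limma on log2 values for files without counts, and it was kept as the main test. The members, their locations and the other lists were chosen with earlier results of these data known. Values in every library were given for up to 5 called members of each location with the smallest p (2 where fewer were called), those lower, and paralog or partner pairs, and up to 3 called genes of each other list were named. Hsp90aa1, Agk, Oxa1l, the Mtx2 series and the ratios beyond the pairs in that rule were chosen after their values were seen.

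Alternatives were other scalings, pseudocounts of 0.5 and 5, a filter at 5 RPKM or none, a mean over transcripts, subtraction of a per-library spline with 5 degrees of freedom (over length and GC, or over expression level), each library left out, and the replicate number as a block. edgeR 4.0.16 on the recovered reads and leaving out each unfractionated library were chosen after seeing the data. Near-identical copies were annotated pseudogene transcripts with at least 95% identity over at least 200 nt. Transcripts of other kinds were not searched. Sequences came from RefSeq tables of GRCm38.p6. On simulated data for 10619 genes with 200 changed, the limma step recovered 74% of changes of log2 size 1 and 100% of size 2, with 13 false calls. Python 3.11.15 with pandas 2.3.3 and matplotlib 3.10.9 made the tables and plots.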

Additional observations from a re-analysis of the deposited data

Results flagged for a closer look

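Of 64 groups of 4 libraries tested for a library far from the others, 3 stood out, where chance gives about 1 in 20. Timm8a1 read 5.14 RPKM in FSC-A High 3, against 3.53 to 3.64 RPKM in the other FSC-A High libraries. Tomm20 read 117 CPM in unfractionated library 4, against 158 to 166 CPM in the others. Timm22 read 55.6 CPM in unfractionated library 1, against 86.5 to 92.5 CPM in the others.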

How the results depend on the processing

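Of the 13 higher members, 9 passed with every gated library left out in turn, and leaving 1 out gave 9 to 12 higher and 1 lower. Of the 10338 to 10449 genes tested in those fits, 1313 to 1639 were higher and 868 to 1166 lower. Over those settings the location medians ran from 0.25 to 0.41 (outer membrane), 0.42 to 0.59 (intermembrane space), 0.54 to 0.62 (inner membrane) and -0.01 to 0.06 (matrix chaperones), and the other pathway genes gave 7 to 12 higher and 4 to 5 lower; their 15 higher became 9, 7, 9 and 8 without FSC-A High 2, FSC-A High 3, FSC-A Low 1 and FSC-A Low 3. The member levels in unfractionated HSCs had a median of 78.8 CPM per kb (69 to 83.7 with 1 library left out) and 99.8 CPM without scaling for length.

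Library total scaling gave 8 members higher and 4 lower, 3 other pathway genes higher, and medians of 0.06, 0.21, 0.28 and -0.28 in the order of locations above. Of all tested genes 9.21% were higher and 21.4% lower under it. Median-ratio scaling gave 9 other pathway genes higher, where 1503 of 10619 tested genes were. No filter gave 7 higher and 2 lower, where 1371 and 852 of 15904 genes were. The edgeR test gave 9 higher, where 12.9% of all tested genes were. A filter at 5 RPKM, which drops Timm8a1, gave an intermembrane space median of 0.64. Removing length and GC gave 5 members higher and 2 lower, 6 other pathway genes higher and medians of 0.13, 0.02, 0.02 and -0.07, where 9.2% of all genes were higher and 7.14% lower. Removing the expression level trend gave 7 members higher and 3 lower, 5 other pathway genes higher, and medians of 0.12 (outer membrane), 0.36 (intermembrane space) and -0.26 (matrix chaperones). Of all tested genes 12% were then higher and 11.2% lower. The cause of these changes was not tested.

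Deviations of same-numbered libraries correlated at -0.031, 0.059 and 0, within the range of the others, so no pairing by replicate number was seen. Low correlations cannot exclude that same-numbered libraries shared animals or a sort, and the labels do not say. With the replicate block 9 members were higher and 1 lower (Tomm5, Chchd4, Timm23 and Pam16 did not pass), 12 other pathway genes were higher and 5 lower, and medians were 0.40, 0.49, 0.56 and -0.01. Of all 10619 tested genes 1460 were then higher and 971 lower. With the block and length and GC removed, 4 members were higher and 2 lower, 3 other pathway genes higher and 4 lower, and medians were 0.24, 0.09, 0.06 and -0.14. In that fit 688 of all 10332 genes were higher and 527 lower.

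Single members changed sign, and none passed in a setting where its sign had changed. Tomm5, Timm17a and Pam16 among them were called higher on the deposited scale. With library total scaling these were Tomm20 (-0.13), Tomm22 (-0.02), Tomm40 (-0.24), Timm9 (-0.08), Timm13 (-0.02), Timm44 (-0.12), Timm50 (-0.01), Dnajc19 (-0.01) and Trap1 (-0.28). With length and GC removed they were Tomm5 (-0.20), Tomm22 (-0.34), Timm8a1 (-0.04), Timm9 (-0.48), Timm17a (-0.14), Timm44 (-0.01), Dnajc19 (-0.49), Pam16 (-0.04) and Hspe1 (-0.33), and with the block added Tomm5 (-0.17), Tomm22 (-0.25), Timm9 (-0.32), Timm17a (-0.06), Timm21 (-0.03), Dnajc19 (-0.37), Pam16 (-0.06) and Hspe1 (-0.27). With the expression level trend removed they were Tomm22 (-0.01), Tomm40 (-0.39), Samm50 (-0.02), Timm13 (-0.16), Timm44 (-0.01), Timm50 (-0.17), Dnajc19 (-0.09) and Trap1 (-0.26). Trap1 was at -0.02 with median-ratio scaling and -0.01 with the replicate block or without FSC-A High 4, and Tomm40 at -0.01 without FSC-A High 1 or FSC-A Low 1; with 1 library left out they ranged from -0.01 to 0.06 and from -0.01 to 0.17.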
